A study of Homo sapiens with 40 samples.

Results

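The sterol and fatty acid synthesis genes are a list of 30 genes of 2 linked pathways, of which 26 had a probe listed under their symbol and were tested among 10608 genes. The other 4 (IDI1, FDFT1, DHCR7 and HSD17B7) are not analysed here. The genes were listed by pathway, with earlier results of these data known, and each gene was read on its brightest probe. Total RNA was measured on 40 Illumina arrays. The cells were A549, a widely used line from a human lung carcinoma that responds to glucocorticoids. Cells held siRNA against the receptor coregulator CCAR1 (siCCAR1), CoCoA (siCoCoA, gene CALCOCO1), CCAR2 (siCCAR2) or ZNF282 (siZNF282), or nonspecific siRNA (siNS). All cells were moved into hormone-free medium with charcoal-stripped serum after transfection, then received 100 nM dexamethasone (dex, a synthetic glucocorticoid) for 6 h or ethanol, the vehicle. Titles of the ethanol arrays carry 0 h where the protocol gives 6 h for both, so the length of the ethanol treatment is not settled. The siCCAR1, siCoCoA and siCCAR2 groups each had 4 dex and 4 ethanol arrays, siZNF282 had 2 and 2, and siNS had 6 and 6.

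The mevalonate pathway turns acetyl-CoA into farnesyl diphosphate, and the sterol branch carries this through squalene and lanosterol to cholesterol. A parallel route builds fatty acids from citrate-derived acetyl-CoA, then lengthens and desaturates them. Both routes are driven by the sterol regulatory element binding proteins (SREBPs, genes SREBF1 and SREBF2), membrane-bound transcription factors that SCAP escorts out of the endoplasmic reticulum when sterols are low and that INSIG proteins hold back when sterols are high. In lung epithelium these routes also supply lipid for surfactant. Charcoal stripping removes lipids as well as hormones from serum, and all 10 groups received the same stripped serum.

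Promoters of 26 of the 30 members (IDI1, DHCR7 and HSD17B7 included) were matched in the RefSeq table of GRCh38.p14, each from 250 bases before to 50 bases after the start of the gene. The 4 stretches below are printed because the results below turn on these genes. HMGCS1 was the member called higher in dex than in ethanol in all 5 siRNA groups. TM7SF2 had the largest rise on CCAR1 depletion. FADS1 and FADS2 are neighbours on chromosome 11 and shared lower levels after depletions. Their start sites used here lie 800 bases apart on opposite strands. For each symbol the first start site listed was used, and any others were not examined. Capitals mark the CCAAT box, read as CCAAT or as ATTGG on the other strand.
HMGCS1, chr5:43313363-43313662, minus strand: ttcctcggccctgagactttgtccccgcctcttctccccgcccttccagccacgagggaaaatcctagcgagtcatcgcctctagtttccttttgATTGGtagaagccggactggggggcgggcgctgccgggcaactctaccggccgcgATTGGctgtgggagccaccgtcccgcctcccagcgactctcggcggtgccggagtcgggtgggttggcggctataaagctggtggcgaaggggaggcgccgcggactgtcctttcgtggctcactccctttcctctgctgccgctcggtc
TM7SF2, chr11:65111622-65111921, plus strand: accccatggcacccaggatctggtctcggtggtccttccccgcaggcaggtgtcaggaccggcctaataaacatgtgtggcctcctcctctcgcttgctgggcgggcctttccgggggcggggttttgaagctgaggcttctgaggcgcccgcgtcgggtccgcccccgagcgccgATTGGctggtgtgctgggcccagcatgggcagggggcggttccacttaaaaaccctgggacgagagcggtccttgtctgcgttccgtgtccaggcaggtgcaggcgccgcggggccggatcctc
FADS1, chr11:61816954-61817253, minus strand: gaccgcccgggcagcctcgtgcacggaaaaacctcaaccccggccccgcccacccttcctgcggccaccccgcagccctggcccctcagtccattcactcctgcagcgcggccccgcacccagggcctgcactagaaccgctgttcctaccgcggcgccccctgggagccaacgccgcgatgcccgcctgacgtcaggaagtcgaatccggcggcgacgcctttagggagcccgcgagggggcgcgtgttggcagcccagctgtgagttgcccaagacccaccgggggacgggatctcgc
FADS2, chr11:61815953-61816252, plus strand: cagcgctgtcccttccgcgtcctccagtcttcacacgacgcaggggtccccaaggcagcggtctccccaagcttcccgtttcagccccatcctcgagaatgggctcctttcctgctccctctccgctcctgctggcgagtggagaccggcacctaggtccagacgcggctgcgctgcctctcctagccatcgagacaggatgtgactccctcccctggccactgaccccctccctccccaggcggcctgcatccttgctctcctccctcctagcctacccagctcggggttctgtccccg

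The HMGCS1 stretch held 2 CCAAT boxes and the TM7SF2 stretch 1, while neither FADS stretch held any. Over all members with a promoter, 17 of 26 (65.4%) held CCAAT, against 34.6% of the 35116 promoters in the table. A GC box (GGGCGG, both strands) was present in 24 of 26 (92.3%), against 45% of all promoters. The core of the sterol regulatory element (TCACNCCAC, both strands) matched 1 member, SREBF2, against 1.13% of all promoters. A short receptor motif (AGAACA, both strands) matched 1 member, PMVK, against 14.8%. The 35116 promoters were neither reduced to 1 per symbol nor limited to the genes tested, so these shares come from unlike sets. These are letter matches in a short window and say nothing about binding.

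Values below are log2 intensities, changes are log2 differences between group means ± SE from a limma fit of all 40 arrays, and a gene is called where its adjusted p over all 10608 genes is under 0.05. The number of arrays limits the precision, and each p rests on the spread among arrays alone, which may be technical since no label says that they came from separate cultures. Overlap of array ranges was checked in called comparisons alone, and its share over all genes was not computed. A lack of overlap therefore describes a call and adds no separate support to it. Each siRNA lowered its own target: CCAR1 to 49.8% of the siNS level in dex and 60.5% in ethanol, CALCOCO1 to 54.3% and 73.8%, CCAR2 to 20.3% and 20.1%, and ZNF282 to 55.5% and 37.4%. The CALCOCO1 call in ethanol was lost without siCoCoA ethanol replicate 2, 3 or 4 or siNS ethanol replicate 1, 2 or 3 (−0.42 to −0.37, against −0.44), and the ZNF282 call in dex without siZNF282 dex replicate 2 or 3 (−0.88 to −0.82, against −0.85). CCAR2 was also lower in siCoCoA cells, by −1.10 ± 0.14 in dex (adjusted p = 4.06e-07) and −0.96 ± 0.14 in ethanol (adjusted p = 7.63e-06), so the siCoCoA groups had less of both transcripts. CALCOCO1 in turn was called higher in siCCAR1 ethanol (0.50, adjusted p = 0.0109; 0.44 and not called without replicate 4) and in siZNF282 dex (0.66, adjusted p = 0.00374; 0.54 and not called without replicate 2) and ethanol (0.53, adjusted p = 0.0191; 0.33 and not called without replicate 2). All 6 epithelial markers with a probe were above the line of 5, and their mean level ran from 9.31 to 9.94 over the groups. That line is a chosen cutoff for signal over background and could not be checked against detection values. Mean levels of the leukocyte, endothelial and fibroblast marker lists lay between 4.38 and 5.17 in every group. CD14, at a mean of 7.24, was the sole leukocyte marker above the line. TEK and the fibroblast markers COL1A1, DCN, LUM and THY1 passed it in at least 1 group, with no endothelial marker above a mean of 4.51 and no fibroblast marker above 5.21 over all arrays.

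HMGCS1 was higher in dex than in ethanol under every siRNA, and few other members were called by the test used. If the 0 h titles of the ethanol arrays hold, dex and treatment time cannot be told apart in any dex response. HMGCS1 is the synthase that makes HMG-CoA at the entry of the mevalonate pathway. In siCCAR1 cells HMGCS1 read 11.15, 11.17, 11.02 and 11.08 in dex, against 10.45, 10.27, 10.31 and 10.33 in ethanol. In siCoCoA cells it read 11.77, 11.82, 11.54 and 11.56 in dex, against 10.75, 10.84, 10.77 and 10.87 in ethanol. All 4 dex arrays of each siRNA lay above all 4 ethanol arrays. In siCCAR2 cells it read 10.57, 10.90, 10.53 and 10.59 in dex, against 9.98, 10.12, 9.60 and 9.70 in ethanol. In siZNF282 cells it read 11.15 and 11.14 in dex, against 10.73 and 10.43 in ethanol. The siNS dex arrays had a lowest value of 11.04, a median of 11.34 and a highest of 11.52, against 10.35, 10.57 and 10.77 in siNS ethanol. The dex and ethanol arrays did not overlap under any of the 5 siRNAs, and dex was the higher in every pair of arrays with the same replicate number.

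The HMGCS1 rise was 0.77 ± 0.11 in siCCAR1 cells (1.70-fold, adjusted p = 4.79e-06) and 0.86 ± 0.11 in siCoCoA cells (1.82-fold, adjusted p = 4.80e-07). It was 0.80 ± 0.11 in siCCAR2 cells (1.74-fold, adjusted p = 1.54e-06). In siZNF282 cells it was 0.56 ± 0.16 (1.48-fold, adjusted p = 0.0249), a call that was lost without siZNF282 dex replicate 2 or 3 or ethanol replicate 3 (0.42 to 0.57) and with only the siZNF282 arrays in the fit. In siNS cells it was 0.73 ± 0.09 (1.66-fold, adjusted p = 1.05e-07). HMGCS1 was the sole member called higher under all 5 siRNAs, a pattern shared by 2.07% of all genes. The response of each depletion differed from that of siNS by 0.04 (95% interval −0.26 to 0.33) for siCCAR1, 0.13 (−0.16 to 0.43) for siCoCoA, 0.07 (−0.23 to 0.36) for siCCAR2 and −0.17 (−0.54 to 0.21) for siZNF282. None of these differences was called.

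**Figure D1:**
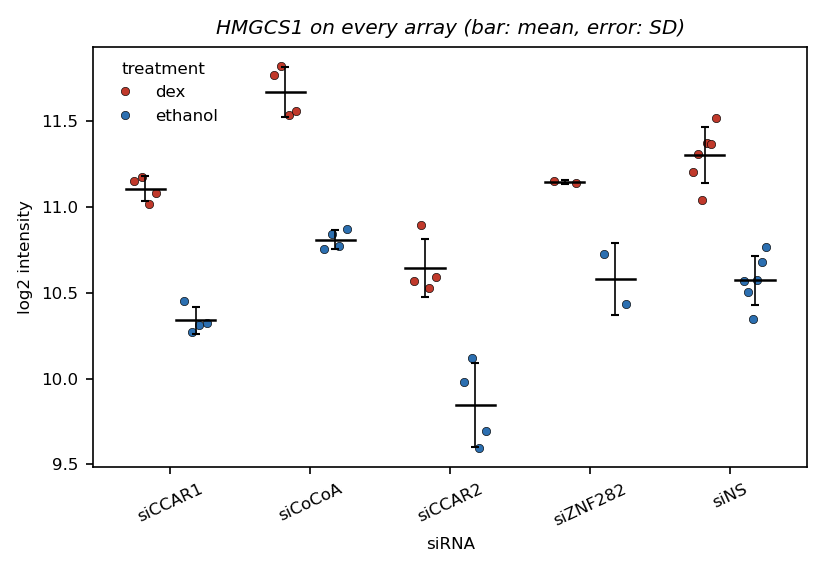
Log2 intensity of HMGCS1 on every array (points), by siRNA (x axis), with dex left of ethanol; bars are group means and error bars the SD. Dex arrays lie above ethanol arrays under each siRNA, and the siCCAR2 groups lie lowest, with ethanol arrays of 9.60 to 10.12 against 10.35 to 10.77 in siNS.

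Beyond HMGCS1, the share of members that dex changed stayed below or near that of all genes. One member of 26 (3.85%) was called in siCCAR1 cells, where 7.68% of all genes were (4.33% higher and 3.36% lower). The same single member was called in siCoCoA cells, with 9.93% of all genes (5.36% higher and 4.56% lower), and in siCCAR2 cells, with 9.72% (6.47% higher and 3.25% lower). In siZNF282 cells 2 members (7.69%) were called, both higher, against 6.19% of all genes (3.9% higher and 2.29% lower). In siNS cells HMGCS1 alone was called, against 16.3% of all genes (7.7% higher and 8.61% lower). These counts use the brightest probes. Second probes were called lower with dex for SQLE in siCoCoA (−0.59, adjusted p = 0.000421) and siNS cells (−0.32, adjusted p = 0.0169), and in siNS cells for ACLY (−0.34, adjusted p = 0.018) and ACACA (−0.34, adjusted p = 0.0446). The medians of the 26 dex responses were −0.06 in siCCAR1, −0.10 in siCoCoA, 0.01 in siCCAR2, −0.06 in siZNF282 and 0.02 in siNS cells. Over all genes the medians were −0.02, −0.02, 0.00, 0.01 and −0.03 in the same order. Replicate numbers paired the dex and ethanol arrays of siCCAR1, siCoCoA, siCCAR2 and siNS. A replicate block was fitted as 1 effect per replicate number, shared by all siRNAs and treatments, and not as pairs within an siRNA. With this block, 3 further members were called in those cells, each under 1 siRNA. They were FADS1 lower in siCoCoA cells (−0.34, adjusted p = 0.0331), ACACA lower in siCCAR2 cells (−0.35, adjusted p = 0.0461) and LSS higher in siNS cells (0.26, adjusted p = 0.0375).

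The other member called with dex was MVK, mevalonate kinase, in siZNF282 cells. It read 6.59 and 6.20 in dex, against 5.13 and 5.40 in ethanol, a rise of 1.13 ± 0.24 (2.19-fold, adjusted p = 0.00232). The ethanol pair, with a mean of 5.26 near the line of 5, was the one that stood apart. The siNS ethanol arrays had a lowest value of 6.16, a median of 6.75 and a highest of 7.09. The other 8 groups had MVK means from 6.40 to 6.85. The difference between the siZNF282 and siNS responses, 0.99 ± 0.28, was not called (adjusted p = 0.152). The call on the response was lost without siZNF282 dex replicate 2 or ethanol replicate 2 (0.94 to 1.00) and with only the siZNF282 arrays in the fit.

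No member was called for a difference in dex response between a depletion and siNS, whereas 0.104% of all genes were for siCCAR1, 0.00943% for siCoCoA, 0.0848% for siCCAR2 and 0.245% for siZNF282. At an unadjusted p under 0.05 the limma test gave 1 member (3.85%) for siCCAR1, 2 (7.69%) for siCoCoA, 1 for siCCAR2 and 1 for siZNF282, against 3.63%, 4.93%, 6.87% and 8.80% of all genes in the same order. The count of called members stayed at 0 in each of the 7 other ways of fitting and without any single array. More calls came from the siRNAs, as the map of changes shows: 23 of the 26 members were called in at least 1 of the 8 comparisons of a depletion with siNS (88.5%), against 65.1% of all genes. Of 208 pairs of a member and such a comparison 64 were called (30.8%, 11.1% higher and 19.7% lower), against 20.7% of all such pairs over all genes (10.6% higher and 10.1% lower). The 3 members called in none were CYP51A1 (lanosterol demethylase), MSMO1 (sterol methyl oxidase) and SREBF2, whose group means of 4.66 to 5.42 lay near background.

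**Figure D2:**
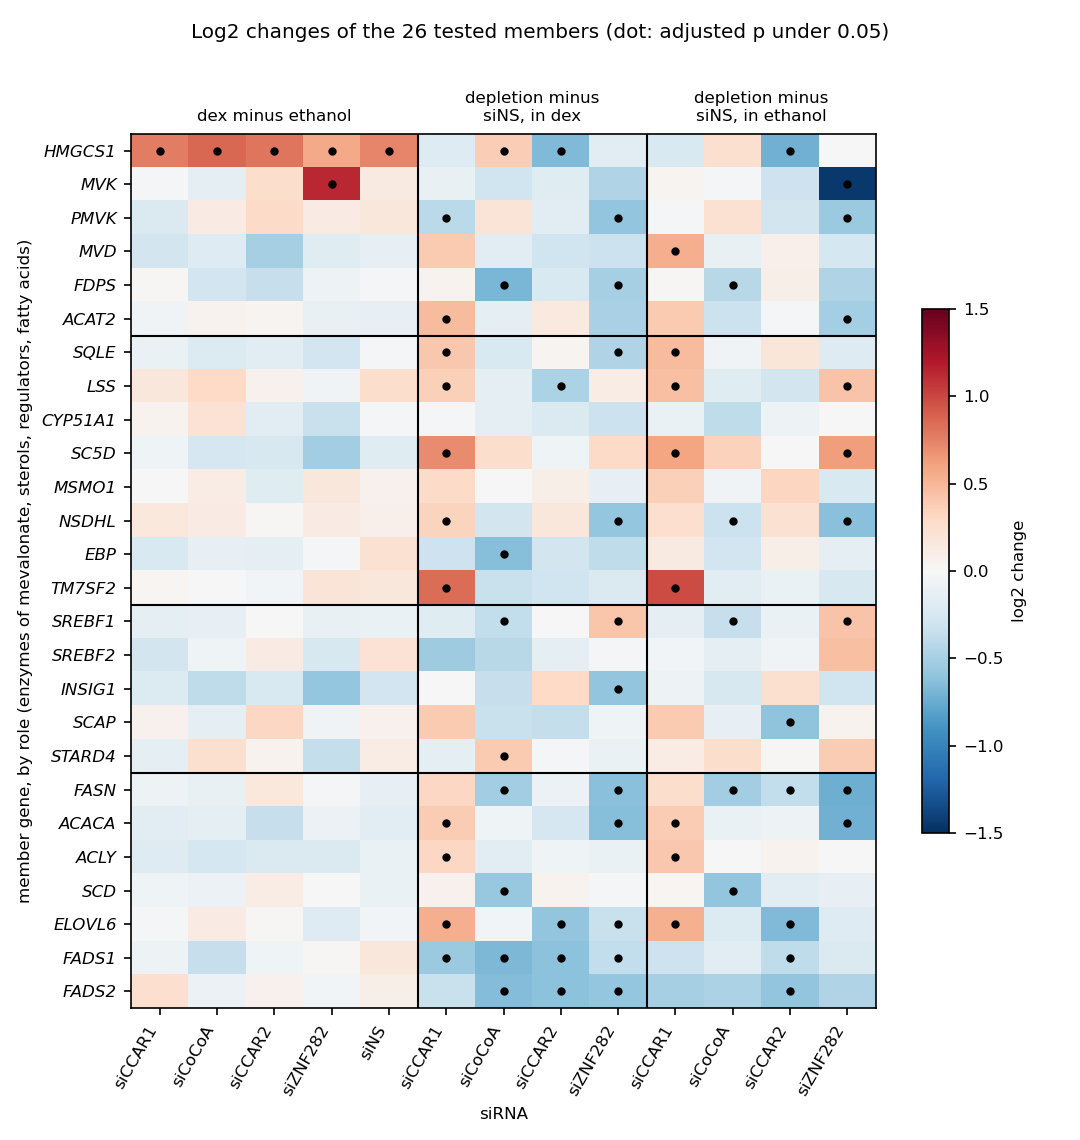
Log2 change of the 26 tested members (rows, by role) in the 5 dex responses and in the 8 comparisons of a depletion with siNS (columns); colour gives the change and a dot marks an adjusted p under 0.05. The HMGCS1 row is red throughout the dex block, 1 other dex response (MVK in siZNF282) is marked, and the depletion blocks differ from siRNA to siRNA.

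Depletion of CCAR1 raised enzymes of both branches. In dex 9 members were called higher and 2 lower, 42.3% of the 26, against 10.1% and 8.9% of all genes (19% in all). In ethanol 8 were called higher and none lower (30.8%), against 7.31% and 6.5% of all genes. The median member change was 0.18 in dex and 0.19 in ethanol, against 0.02 in each over all genes. Of the 8 sterol enzymes, 5 were higher in dex and 4 in ethanol. In RNA of a whole culture, a change in every cell and a change in the number of cells that carry a transcript cannot be told apart.

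TM7SF2, a sterol reductase of the late cholesterol branch, read 9.12, 8.66, 9.25 and 9.18 in siCCAR1 dex, against a lowest of 8.05, a median of 8.21 and a highest of 8.39 in siNS dex. In siCCAR1 ethanol it read 9.02, 8.90, 9.05 and 9.13, against 7.83, 8.07 and 8.23 in siNS ethanol. All 8 siCCAR1 arrays lay above all 12 siNS arrays, with a rise of 0.84 ± 0.13 in dex (adjusted p = 7.75e-06) and 0.98 ± 0.13 in ethanol (adjusted p = 8.12e-07). SC5D, the desaturase that acts on lathosterol, read 9.65, 9.41, 9.77 and 9.68 in siCCAR1 dex, against 8.57, 8.92 and 9.13 (lowest, median and highest) in siNS dex. In siCCAR1 ethanol SC5D read 9.76, 9.43, 9.62 and 9.95, against 8.81, 9.12 and 9.32 in siNS ethanol. Neither treatment showed an overlap, with rises of 0.71 ± 0.13 in dex (adjusted p = 8.35e-05) and 0.59 ± 0.13 in ethanol (adjusted p = 0.00113).

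ELOVL6, the elongase that lengthens newly made palmitate, read 9.61, 9.67, 9.62 and 9.73 in siCCAR1 dex, against 9.01, 9.11 and 9.22 in siNS dex. In siCCAR1 ethanol it read 9.60, 9.70, 9.71 and 9.74, against 8.96, 9.16 and 9.35 in siNS ethanol. It was higher on every siCCAR1 array than on any siNS array, by 0.55 ± 0.08 in dex (adjusted p = 2.05e-06) and 0.53 ± 0.08 in ethanol (adjusted p = 4.96e-06). The calls on TM7SF2, SC5D and ELOVL6 held without any single array. ACACA, the carboxylase that commits acetyl-CoA to fatty acids, read 9.91, 9.76, 9.95 and 9.82 in siCCAR1 dex, against 9.22, 9.49 and 9.72 in siNS dex. In siCCAR1 ethanol it read 9.94, 9.96, 10.02 and 10.18, against 9.35, 9.64 and 9.94 in siNS ethanol. Its rise was 0.38 ± 0.12 in both treatments, and the siNS and siCCAR1 arrays came close without overlap.

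The other members called higher in both treatments were SQLE (squalene epoxidase, 0.40 ± 0.14 in dex and 0.47 ± 0.14 in ethanol), LSS (lanosterol synthase, 0.36 ± 0.12 and 0.45 ± 0.12) and ACLY (ATP citrate lyase, 0.31 ± 0.11 and 0.40 ± 0.11). NSDHL, a sterol dehydrogenase, read 9.78, 9.68, 9.67 and 9.71 in siCCAR1 dex, against 9.22, 9.38 and 9.60 in siNS dex, and was called there (0.34 ± 0.10, adjusted p = 0.0199). ACAT2, acetoacetyl-CoA thiolase, was called in dex (0.47 ± 0.16), a call lost with the mean of probes and with only the groups compared. Its other probe changed by 0.06, but that probe had a mean of 5.125 over all arrays, near background. MVD, mevalonate diphosphate decarboxylase, was called in ethanol (0.55 ± 0.18). The other LSS probe changed by 0.08 in dex and 0.41 in ethanol and was not called. That probe had a mean of 4.75 over all arrays, near background. For ACLY the other probe was called in dex (0.52) and not in ethanol (0.23). PMVK, phosphomevalonate kinase, read 7.09, 7.92, 8.18 and 8.18 in siCCAR1 dex, against 7.98, 8.32 and 8.36 in siNS dex. Its call (−0.41 ± 0.15) was carried by siCCAR1 dex replicate 1, without which the change was −0.15. The ranges of siCCAR1 and siNS arrays overlapped for LSS and ACLY in both treatments, for MVD in ethanol and for PMVK in dex.

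Without siCCAR1 dex replicate 1 the number of called members in dex was 4, without dex replicate 3 it was 7, and without ethanol replicate 4 the number in ethanol was 5. In dex the calls lost without at least 1 array were those of PMVK (without siCCAR1 replicate 1 or 2 or siNS replicate 1, 3, 4, 5 or 6), SQLE and LSS (siCCAR1 1, 3 or 4 or siNS 2, 3 or 5), NSDHL (siCCAR1 1), ACAT2 (siCCAR1 1 or 4 or siNS 6), ACACA (siCCAR1 1 or 3 or siNS 1) and ACLY (siCCAR1 1, 3 or 4 or siNS 1, 3 or 4). In ethanol they were those of MVD (siCCAR1 1, 3 or 4 or siNS 1, 2, 3 or 6), SQLE (siCCAR1 1 or 4 or siNS 1), LSS (siCCAR1 4), ACACA (siCCAR1 3 or 4 or siNS 5) and ACLY (siCCAR1 2). Values at those losses ran from 0.27 to 0.43 in dex, apart from PMVK (−0.43 to −0.15), and from 0.32 to 0.53 in ethanol.

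**Figure D3:**
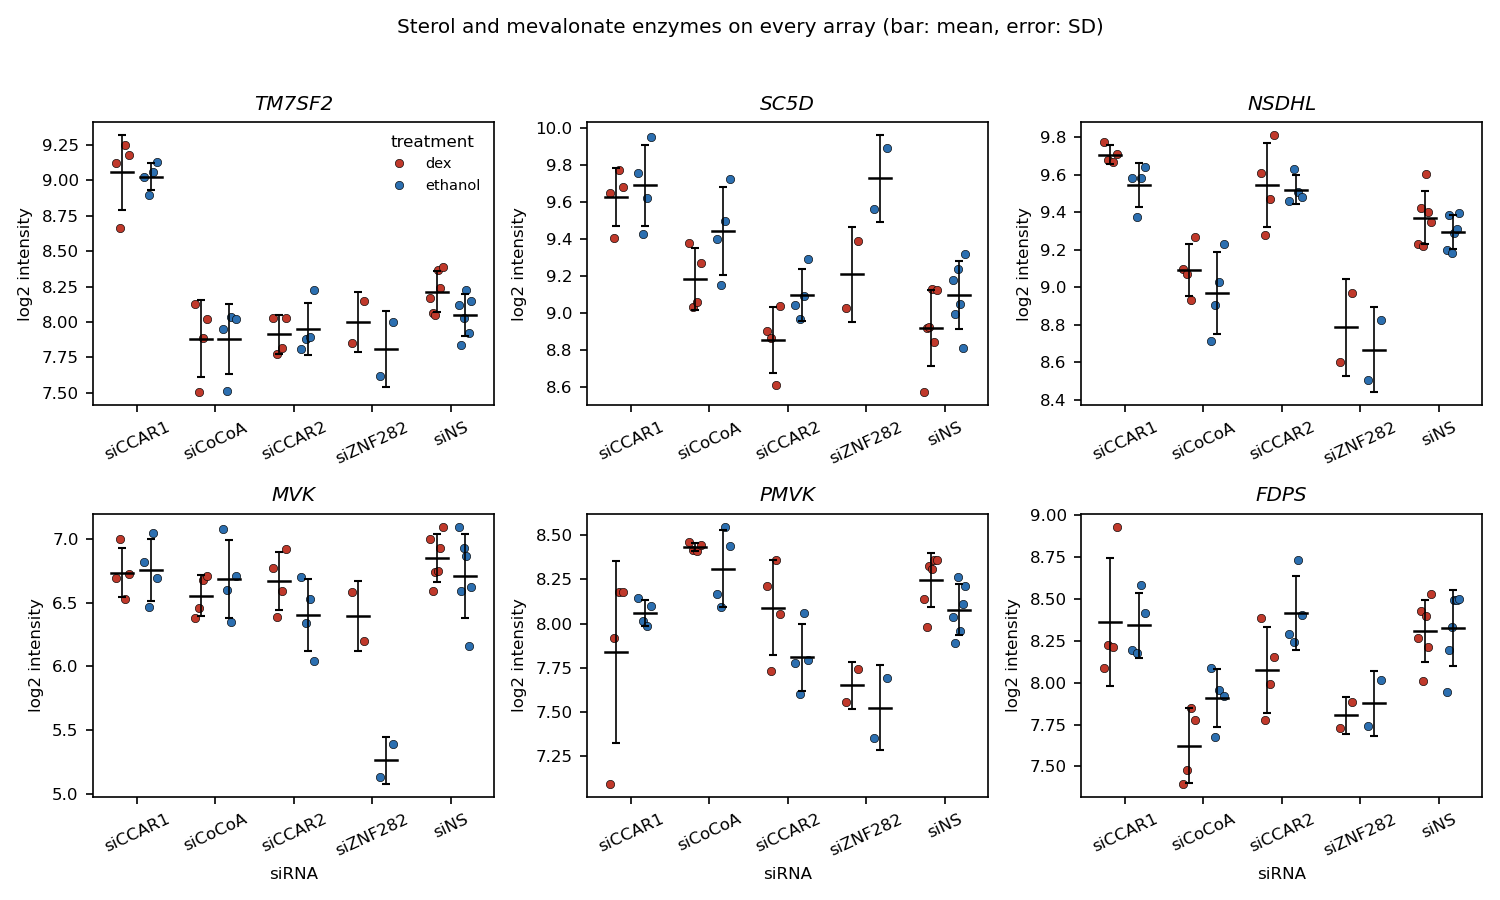
Log2 intensity on every array (points) for 6 enzymes of the mevalonate and sterol branches, by siRNA, with dex left of ethanol; bars are group means and error bars the SD, and each panel has its own axis. TM7SF2 is high in siCCAR1 cells alone among the 5 siRNAs, MVK is low on the 2 siZNF282 ethanol arrays, and NSDHL is low in siZNF282 cells.

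In siCoCoA cells members moved the other way. CCAR2 was lower in these cells as well, so less CALCOCO1 and less CCAR2 cannot be told apart within these groups. In dex 2 members were called higher and 7 lower (34.6%), against 11% and 9.07% of all genes, and in ethanol none was called higher and 5 lower (19.2%), against 8.44% and 7.02%. The median member change was −0.25 in dex and −0.16 in ethanol, against 0.01 and 0.00 over all genes. Of the 7 fatty acid enzymes, 4 were lower in dex and 2 in ethanol.

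FASN, the synthase that assembles palmitate, read 11.70, 11.45, 11.49 and 12.02 in siCoCoA dex, against 11.85, 12.17 and 12.49 in siNS dex, with 1 siCoCoA array inside the siNS range. In siCoCoA ethanol it read 11.82, 11.66, 11.71 and 11.92, against 12.02, 12.32 and 12.57 in siNS ethanol, with no overlap. FASN fell by 0.53 ± 0.13 in dex (adjusted p = 0.00255) and in ethanol (adjusted p = 0.00328). SCD, the desaturase that makes oleate, read 13.18, 12.76, 13.01 and 12.97 in siCoCoA dex, against 13.44, 13.54 and 13.67 in siNS dex. In siCoCoA ethanol SCD read 13.16, 12.80, 13.22 and 13.08, against 13.41, 13.71 and 13.81 in siNS ethanol. All siCoCoA arrays lay below all siNS arrays of the same treatment, by −0.57 ± 0.11 in dex (adjusted p = 0.000195) and −0.59 ± 0.11 in ethanol (adjusted p = 0.000198).

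FDPS, farnesyl diphosphate synthase, read 7.39, 7.48, 7.85 and 7.77 in siCoCoA dex, against 8.01, 8.33 and 8.53 in siNS dex, a change of −0.68 ± 0.15 (adjusted p = 0.00073) with no overlap. In siCoCoA ethanol it read 8.09, 7.67, 7.96 and 7.92, against 7.94, 8.41 and 8.50, with overlap (−0.42 ± 0.15, adjusted p = 0.0488). EBP, a sterol isomerase, read 9.61, 9.07, 9.23 and 9.44 in siCoCoA dex, against 9.66, 9.97 and 10.19 in siNS dex (−0.64 ± 0.12, adjusted p = 0.000111). Its ranges did not overlap in dex, and in ethanol its change was −0.29 and not called. HMGCS1 went the opposite way in dex, at 0.37 ± 0.10 (adjusted p = 0.00855), with siCoCoA arrays of 11.54 to 11.82 all above the highest siNS dex value of 11.52. Its ethanol change of 0.24 was not called.

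SREBF1, which encodes the SREBP most tied to fatty acid genes, was lower by −0.37 ± 0.12 in dex and −0.35 ± 0.12 in ethanol, with overlapping ranges in dex. The other SREBF1 probe changed by −0.33 in dex and −0.27 in ethanol and was not called. NSDHL was lower in ethanol (−0.32 ± 0.10). STARD4, a sterol carrier, passed the line of 5 only through its means in siCoCoA dex (5.16) and siZNF282 ethanol (5.03), so its difference in siCoCoA dex (0.39) rests on the group that admitted it. It is 1 of the 2 counted as higher, and its call was also lost without the intensity filter, with only the groups compared and under both rescalings. With the replicate block, TM7SF2 was also called lower in siCoCoA dex (−0.31, adjusted p = 0.0124, against 0.063 without the block). A second SQLE probe was called lower in siCoCoA dex (−0.37, adjusted p = 0.0116), where the brightest was not. The number of called members in ethanol was 3 without siCoCoA ethanol replicate 2, 3 or 4 or siNS ethanol replicate 2, 4 or 6. Calls were lost for FDPS in ethanol (without siCoCoA replicate 2, 3 or 4 or siNS 2, 3, 4, 5 or 6, −0.44 to −0.34), NSDHL in ethanol (siCoCoA 1 or 2 or siNS 2 or 6, −0.31 to −0.24), SREBF1 in ethanol (any siCoCoA array or siNS 3, 4 or 6, −0.37 to −0.30), SREBF1 in dex (siCoCoA 2 or 4 or siNS 1, −0.33 to −0.28) and STARD4 in dex (siCoCoA 1, 3 or 4 or siNS 2, 3, 4 or 6, 0.33 to 0.41).

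Depletion of CCAR2 lowered HMGCS1, ELOVL6, FADS1 and FADS2 in both treatments. In dex 5 members were called, all lower (19.2%), against 10.5% of all genes called higher and 8.37% lower. In ethanol 6 were called, all lower (23.1%), against 7.24% and 8.96%. The median member change was −0.17 in dex and −0.07 in ethanol, against 0.01 and −0.02 over all genes. The share called in dex was near the 18.9% of all genes. SCD, the desaturase that was low in siCoCoA cells, was not called in siCCAR2 cells (0.06 ± 0.11 in dex and −0.15 ± 0.11 in ethanol). INSIG1 was not called on its brightest probe (0.29 in dex and 0.24 in ethanol), but its other probe was called higher, by 0.99 in dex (adjusted p = 0.000107) and 0.86 in ethanol (adjusted p = 0.000778). Second probes were likewise called for ACLY in dex (0.36, adjusted p = 0.0237) and ACACA in ethanol (−0.39, adjusted p = 0.0361), where the brightest were not.

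HMGCS1 was lower in siCCAR2 cells by −0.66 ± 0.10 in dex (adjusted p = 9.76e-06) and by −0.72 ± 0.10 in ethanol (adjusted p = 1.93e-06). The siCCAR2 dex arrays given above (10.53 to 10.90) all lay below the lowest siNS dex array (11.04), and the ethanol arrays (9.60 to 10.12) below the lowest siNS ethanol array (10.35). ELOVL6 read 8.51, 8.49, 8.49 and 8.57 in siCCAR2 dex, against 9.01, 9.11 and 9.22 in siNS dex, a change of −0.59 ± 0.08 (adjusted p = 2.98e-07). In siCCAR2 ethanol it read 8.43, 8.47, 8.45 and 8.63, against 8.96, 9.16 and 9.35 in siNS ethanol, a change of −0.66 ± 0.08 (adjusted p = 4.29e-08). Both genes were separated from siNS on every array, and their 4 calls held without any single array. The other ELOVL6 probe was called in ethanol (−0.68) and not in dex (−0.25).

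FADS1 and FADS2, the front-end desaturases of polyunsaturated fatty acid synthesis, were lower in both treatments. FADS1 read 11.62, 11.12, 11.03 and 11.24 in siCCAR2 ethanol, against 11.54, 11.59 and 11.82 in siNS ethanol (−0.39 ± 0.11, adjusted p = 0.0116). FADS2 read 9.01, 7.72, 8.55 and 8.21 in siCCAR2 ethanol, against 8.75, 8.92 and 9.40 in siNS ethanol (−0.60 ± 0.18, adjusted p = 0.0172). In both, siCCAR2 replicate 1 lay inside the siNS range. SCAP read 7.62, 8.77, 8.37 and 8.81 in siCCAR2 ethanol, against 8.73, 9.05 and 9.17 in siNS ethanol (−0.60 ± 0.21, adjusted p = 0.0463), and FASN read 11.90, 12.12, 11.80 and 11.93, against 12.02, 12.32 and 12.57 (−0.37 ± 0.13, adjusted p = 0.0399), again with overlap. LSS was lower in dex (−0.47 ± 0.12, adjusted p = 0.00411), where all siCCAR2 arrays (7.92 to 8.22) lay below siNS (8.35 to 8.82). Its other probe, near background at a mean of 4.75, changed by −0.10 and was not called.

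With the replicate block, TM7SF2 was also called lower in siCCAR2 dex (−0.28, adjusted p = 0.0259). Without siCCAR2 ethanol replicate 3 the number called in ethanol was 3. The calls lost without at least 1 array were SCAP (without siCCAR2 ethanol replicate 1, where the change was −0.34, or 3, or siNS 2, 4, 5 or 6), FASN (siCCAR2 1, 3 or 4 or siNS 2, 4, 5 or 6, −0.37 to −0.32), FADS1 (siCCAR2 2 or 3, −0.34 to −0.31) and FADS2 (siCCAR2 2 or 4, −0.54 to −0.38) in ethanol, and FADS2 in dex (siCCAR2 2, −0.54).

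Depletion of ZNF282 lowered FASN, ACACA, NSDHL and PMVK in both treatments, with 2 arrays in each. In dex 1 member was called higher and 10 lower (42.3%), against 15.5% and 15% of all genes (30.5% in all). In ethanol 3 were called higher and 6 lower (34.6%), against 14.5% and 17.1% (31.6% in all), so the share called in ethanol was near that of all genes. The median member change was −0.33 in dex and −0.20 in ethanol, against −0.02 and −0.08 over all genes. Of the 7 fatty acid enzymes 5 were lower in dex and 2 in ethanol. Of the 6 mevalonate enzymes 2 were lower in dex and 3 in ethanol. Of the 8 sterol enzymes 2 were lower in dex, and in ethanol 2 were higher and 1 lower.

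ACACA read 8.81 and 8.88 in siZNF282 dex, against 9.22, 9.49 and 9.72 in siNS dex, and 8.89 and 8.98 in siZNF282 ethanol, against 9.35, 9.64 and 9.94 in siNS ethanol. FASN read 11.57 and 11.56 in siZNF282 dex, against 11.85, 12.17 and 12.49 in siNS dex, and 11.46 and 11.70 in siZNF282 ethanol, against 12.02, 12.32 and 12.57 in siNS ethanol. Both lay below every siNS array: ACACA by −0.64 ± 0.15 in dex (adjusted p = 0.000873) and −0.72 ± 0.15 in ethanol (adjusted p = 0.000248), FASN by −0.63 ± 0.16 (adjusted p = 0.0026) and −0.73 ± 0.16 (adjusted p = 0.000585). MVK was lower in ethanol by −1.45 ± 0.20 (adjusted p = 4.97e-07), the largest change of any member in the 23 comparisons, and its dex change of −0.46 was not called. Its siZNF282 ethanol mean of 5.26 lay near the line of 5, so the size of this change is limited by signal. The 5 calls on ACACA, FASN and MVK held without any single array.

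NSDHL read 8.60 and 8.97 in siZNF282 dex, against 9.22, 9.38 and 9.60 in siNS dex, and 8.51 and 8.83 in siZNF282 ethanol, against 9.18, 9.30 and 9.39 in siNS ethanol. PMVK read 7.55 and 7.74 in siZNF282 dex, against 7.98, 8.32 and 8.36, and 7.35 and 7.69 in siZNF282 ethanol, against 7.89, 8.07 and 8.26. Neither overlapped with siNS: NSDHL changed by −0.59 ± 0.13 in dex and −0.63 ± 0.13 in ethanol, and PMVK by −0.60 ± 0.19 and −0.56 ± 0.19. INSIG1 read 9.43 and 9.23 in siZNF282 dex, against 9.49, 9.84 and 10.38 in siNS dex (−0.59 ± 0.23, adjusted p = 0.0449), but its other probe changed by 0.11. FDPS read 7.73 and 7.88 in siZNF282 dex, against 8.01, 8.33 and 8.53 (−0.50 ± 0.19, adjusted p = 0.0373). ELOVL6 read 8.75 and 8.80 in siZNF282 dex, against 9.01, 9.11 and 9.22 (−0.33 ± 0.10, adjusted p = 0.00815). None of these dex pairs entered the siNS range. The other ELOVL6 probe changed by −0.15 in siZNF282 dex and was not called.

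Members called higher were SREBF1 (0.41 ± 0.15 in dex and 0.42 ± 0.15 in ethanol), SC5D in ethanol (9.56 and 9.89, against 8.81, 9.12 and 9.32 in siNS, 0.63 ± 0.16, adjusted p = 0.00258) and LSS in ethanol (0.43 ± 0.15). The other LSS probe, near background at a mean of 4.75, changed by −0.39 there. The other SREBF1 probe changed by 0.22 in dex and 0.0018 in ethanol, and SREBF1 arrays overlapped with siNS in both treatments. The SREBF1 calls were lost with the mean of probes and with only the groups compared. SREBF1 in ethanol changed by 0.19 without siZNF282 replicate 2 and by 0.65 without replicate 3. SQLE was lower in dex (−0.45 ± 0.18) and ACAT2 in ethanol (−0.50 ± 0.20). There the other SQLE probe changed by −0.30 and was not called. The other ACAT2 probe, near background at a mean of 5.125, changed by −0.84 and was called.

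With 1 siZNF282 array left in a group, its spread was taken from the other groups. The number called in dex was then 2 without siZNF282 dex replicate 2 and 5 without replicate 3, it was 7 without siNS dex replicate 2 or 6, and in ethanol it was 4 without siZNF282 ethanol replicate 2. In dex, calls were lost without siZNF282 replicate 2 for PMVK (−0.50), NSDHL (−0.40) and ELOVL6 (−0.31). They were lost without either siZNF282 array or a single siNS array for FDPS (siNS 2, 4 or 6, −0.58 to −0.43), SQLE (siNS 1, 2, 3, 4 or 6, −0.58 to −0.32), SREBF1 (siNS 2 or 5, 0.36 to 0.47) and INSIG1 (siNS 3, 4 or 6, −0.69 to −0.49). In ethanol, calls were lost for PMVK (−0.39), NSDHL (−0.47) and SREBF1 without siZNF282 replicate 2, for SC5D without replicate 3 (0.46), for LSS without either or siNS 5 (0.38 to 0.49), and for ACAT2 without either or siNS 1, 2, 4 or 5 (−0.55 to −0.45).

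FADS1 was the sole member called lower under all 4 depletions in dex, a pattern of 0.387% of all genes. The siCoCoA and siCCAR2 groups both had less CCAR2. The 4 comparisons also share the siNS dex arrays, which had a lowest FADS1 value of 11.67, a median of 11.77 and a highest of 12.00. FADS1 read 11.28, 11.23, 11.27 and 11.22 in siCCAR1 dex (−0.56 ± 0.11, adjusted p = 0.000257) and 11.02, 11.16, 11.51 and 10.87 in siCoCoA dex (−0.67 ± 0.11, adjusted p = 1.73e-05). It read 11.29, 11.07, 11.18 and 11.24 in siCCAR2 dex (−0.62 ± 0.11, adjusted p = 6.14e-05) and 11.36 and 11.52 in siZNF282 dex (−0.37 ± 0.14, adjusted p = 0.0388). All 14 depletion arrays in dex lay below all 6 siNS dex arrays. In ethanol only the siCCAR2 change was called, but FADS1 was below siNS in each of the 8 comparisons (−0.67 to −0.16). The siCCAR1 change in ethanol was −0.31 (adjusted p = 0.0511), and no difference of FADS1 response was called. The siZNF282 call was lost without siZNF282 dex replicate 2 or 3 or siNS dex replicate 1, 2 or 6 (−0.45 to −0.29).

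FADS2, on the same chromosome, read 8.80, 8.26, 8.25 and 8.31 in siCoCoA dex (−0.65 ± 0.18, adjusted p = 0.00749), 8.58, 8.18, 8.50 and 8.49 in siCCAR2 dex (−0.62 ± 0.18, adjusted p = 0.0113) and 8.40 and 8.54 in siZNF282 dex (−0.59 ± 0.23, adjusted p = 0.0456). The siNS dex arrays had a lowest value of 8.85, a median of 8.95 and a highest of 9.67, the last being replicate 1. These depletion arrays all lay below the siNS range. In siCCAR1 dex FADS2 read 8.52, 8.88, 8.71 and 8.80, a change of −0.33 that was not called. Without siNS dex replicate 1, 5 or 6 or siZNF282 dex replicate 2 or 3 the siZNF282 call was lost (−0.66 to −0.46), and without siCCAR2 dex replicate 2 the siCCAR2 call (−0.54).

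**Figure D4:**
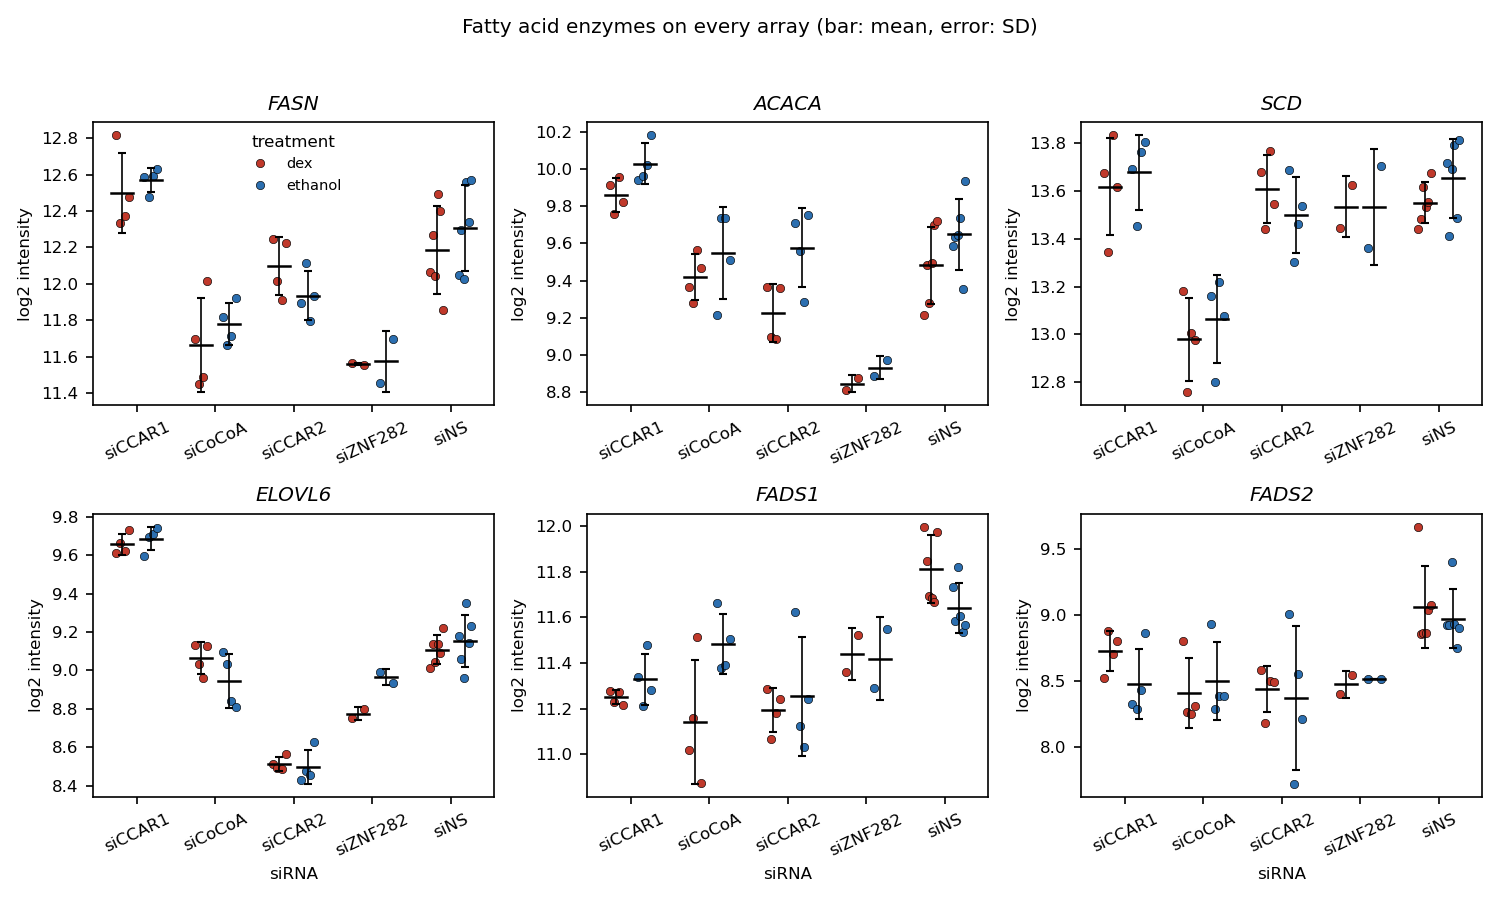
Log2 intensity on every array (points) for 6 fatty acid enzymes, by siRNA, with dex left of ethanol; bars are group means and error bars the SD, and each panel has its own axis. ELOVL6 is highest in siCCAR1 and lowest in siCCAR2 cells, SCD is low in siCoCoA cells, ACACA is low in siZNF282 cells, and FADS1 in dex is highest in siNS cells.

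The depletions were also compared with each other, averaged over dex and ethanol, so that no siNS array entered the differences. The siNS arrays still entered the estimate of the spread. The siCCAR1 and siCoCoA groups were the furthest apart in the share of members called: 16 members were higher and 3 lower in siCCAR1 (73.1%), against 19.2% and 18.4% of all genes. The gaps were largest for TM7SF2 (1.16 ± 0.10, adjusted p = 1.20e-11), FASN (0.81 ± 0.10, adjusted p = 2.95e-08) and ELOVL6 (0.67 ± 0.06, adjusted p = 3.64e-11). HMGCS1 (−0.52 ± 0.08) and PMVK (−0.42 ± 0.11) were lower in siCCAR1. The 3 include STARD4 (−0.35), whose siCCAR1 means of 4.62 in dex and 4.76 in ethanol lay below the line and which passed it through siCoCoA dex. By branch, 7 of 8 sterol enzymes and 5 of 7 fatty acid enzymes were higher in siCCAR1 than in siCoCoA cells, with none lower.

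Against siCCAR2, siCCAR1 had 12 members higher and none lower (46.2%), with 20.9% and 18.1% of all genes (39% in all). ELOVL6 had the largest gap there (1.17 ± 0.06, adjusted p = 1.26e-17). Against siZNF282, siCCAR1 had 13 higher and 1 lower (53.8%), with 25.3% and 20.5% of all genes (45.8% in all): ACACA (1.05 ± 0.11), FASN (0.97 ± 0.12) and NSDHL (0.90 ± 0.10) were among the higher, and SREBF1 (−0.58 ± 0.11) was the lower one. The siCoCoA groups had 5 members higher and 7 lower than siCCAR2 (46.2%), with 18.8% and 16.7% of all genes. HMGCS1 was at one end (0.99 ± 0.08, adjusted p = 1.85e-12) and INSIG1, which retains SCAP in the endoplasmic reticulum, at the other (−0.56 ± 0.14). Between siCoCoA and siZNF282, 5 were higher and 3 lower (30.8%), with 20.2% and 16.9% of all genes, a share below that of all genes. Between siCCAR2 and siZNF282, 10 were higher and 5 lower (57.7%), with 20.6% and 19.1%, led by NSDHL (0.80 ± 0.10) on one side and LSS (−0.65 ± 0.11) on the other. SC5D was lower in siCCAR2 than in siZNF282 cells (−0.49 ± 0.12).

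**Figure D5:**
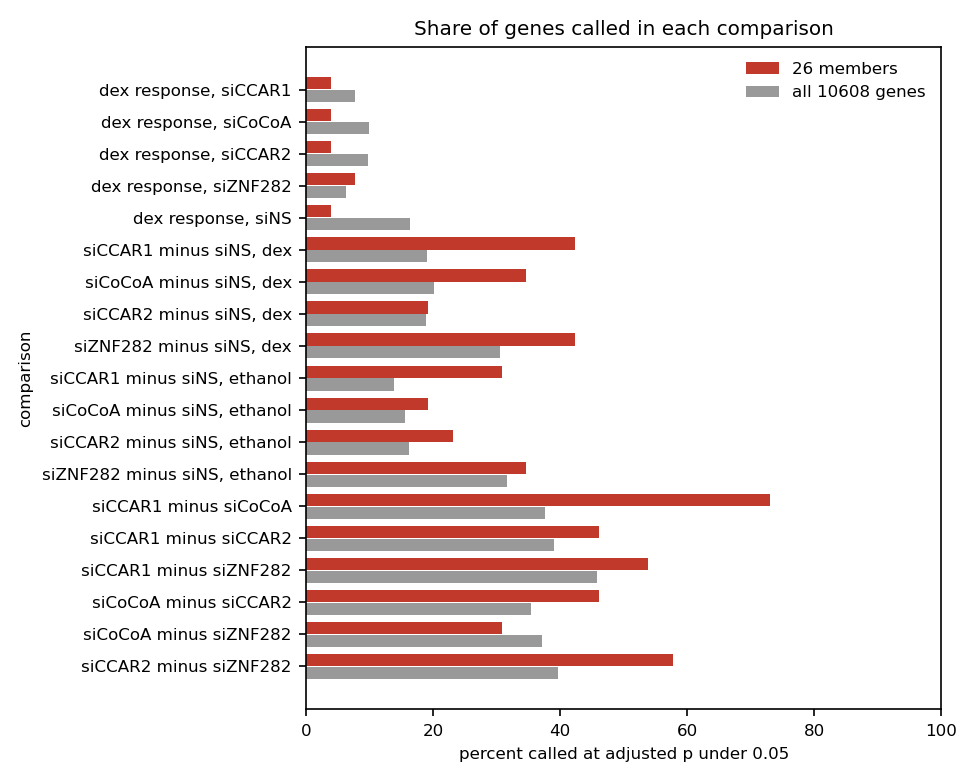
Percent of genes called (x axis) in the dex responses, in each comparison of a depletion with siNS and in each pair of depletions, for the 26 members (red) and all 10608 genes (grey). Members lie below all genes in 4 of 5 dex responses, and the widest gap, 73.1% of members against 37.6% of all genes, is between siCCAR1 and siCoCoA.

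Of 59 further lipid genes in 4 lists 47 were tested. In dex, siCCAR1 had 8 of them higher and 5 lower than siNS (27.7%, against 19% of all genes), siCoCoA 7 and 3 (21.3%, against 20.1%), siCCAR2 8 and 6 (29.8%, against 18.9%) and siZNF282 13 and 6 (40.4%, against 30.5%). In ethanol the counts were 9 and 4 (27.7%, against 13.8%), 5 and 3 (17%, against 15.5%), 6 and 7 (27.7%, against 16.2%) and 12 and 6 (38.3%, against 31.6%) in the same order. With dex itself, 4 were higher and 1 lower in siCCAR1, 2 and 3 in siCoCoA, 5 and 0 in siCCAR2, 5 and 1 in siZNF282, and 3 and 2 in siNS cells. These were 10.6% of the 47 in each group but siZNF282 (12.8%), against 7.68%, 9.93%, 9.72%, 6.19% and 16.3% of all genes in the same order.

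Among genes of fatty acid activation and glycerolipid assembly, ACSL1, a long-chain acyl-CoA synthetase, rose with dex by 2.74 ± 0.21 in siCCAR1, 2.87 ± 0.21 in siCoCoA, 2.80 ± 0.21 in siCCAR2, 2.71 ± 0.29 in siZNF282 and 2.82 ± 0.17 in siNS cells. ACACB, the mitochondrial counterpart of ACACA, rose with dex by 0.81 ± 0.16, 1.10 ± 0.16, 1.11 ± 0.16, 1.16 ± 0.23 and 1.01 ± 0.13 in the same order. The ACACB call in siZNF282 cells was lost without dex replicate 2 or ethanol replicate 2 (0.83 to 0.93). AGPAT2, an acyltransferase of phosphatidic acid synthesis, was lower in siCCAR2 cells by −1.15 ± 0.11 in dex and −1.51 ± 0.11 in ethanol.

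In the cholesterol transport and storage list, 12 genes were tested, and siZNF282 had 8 higher and 1 lower in dex (75%) and 6 higher and 1 lower in ethanol (58.3%), against 30.5% and 31.6% of all genes called in either direction. VLDLR, a lipoprotein receptor, was higher in siZNF282 cells by 2.12 ± 0.21 in dex (adjusted p = 6.71e-10) and 1.63 ± 0.21 in ethanol (adjusted p = 1.66e-07). LIPA, the lysosomal lipase that frees cholesterol from its esters, was higher under all 4 depletions: in dex by 0.62 ± 0.10 in siCCAR1, 0.74 ± 0.10 in siCoCoA, 0.82 ± 0.10 in siCCAR2 and 1.36 ± 0.12 in siZNF282 cells, against siNS arrays that the comparisons share. Of all genes, 1.25% were called higher under all 4 depletions in dex. ABCG1, a sterol exporter, rose with dex by 0.91 ± 0.25 in siCCAR1 cells (adjusted p = 0.0132), 0.91 ± 0.25 in siCCAR2 cells (adjusted p = 0.0117), 1.34 ± 0.35 in siZNF282 cells (adjusted p = 0.0128) and 0.82 ± 0.20 in siNS cells (adjusted p = 0.0028). In siCoCoA cells its change of 0.57 ± 0.25 was not called. The siCCAR1 call was lost without dex replicate 4 or ethanol replicate 1 or 2 (0.73 to 0.84), and the siCCAR2 call without dex replicate 4 or ethanol replicate 2 (0.78 to 0.80). The siZNF282 rise was 0.80 without ethanol replicate 2 and 0.93 without dex replicate 3, and was then not called. In the isoprenoid branch, ICMT, which methylates prenylated proteins, was lower by −1.31 ± 0.10 in siCCAR2 dex and by −0.98 ± 0.10 in siCoCoA dex. FNTA, the shared subunit of 2 prenyltransferases, was higher in siCCAR2 cells by 0.45 ± 0.10 in dex and 0.63 ± 0.10 in ethanol. PDSS1, which makes the side chain of coenzyme Q, was lower in siZNF282 ethanol by −0.67 ± 0.16, or −0.53 and not called without ethanol replicate 2. Among genes of SREBP processing and degradation, MBTPS2, the protease that makes the second SREBP cut, was lower in siCoCoA cells by −0.60 ± 0.09 in both treatments. FBXW7, a ubiquitin ligase subunit that targets nuclear SREBPs, was called higher under all 4 depletions in both treatments. Of all genes, 1.25% were called so in dex and 0.66% in ethanol, in comparisons that share the siNS arrays. In dex FBXW7 was higher by 0.81 ± 0.13 in siCCAR1, 0.55 ± 0.13 in siCoCoA, 0.41 ± 0.13 in siCCAR2 and 0.60 ± 0.17 in siZNF282 cells, and in ethanol by 0.75 ± 0.13, 0.42 ± 0.13, 0.52 ± 0.13 and 0.69 ± 0.17. Its calls were lost in dex for siCCAR2 (without siCCAR2 replicate 1, 2 or 4 or siNS 4 or 6, 0.31 to 0.41) and siZNF282 (without replicate 3, 0.51), and in ethanol for siCoCoA (without siCoCoA replicate 3 or 4 or siNS 1 or 6, 0.35 to 0.40) and siZNF282 (without replicate 3, 0.48). SYVN1, an endoplasmic reticulum ubiquitin ligase, was higher in siZNF282 cells by 0.46 ± 0.18 in dex and 0.68 ± 0.18 in ethanol. The SYVN1 call was lost in dex without either siZNF282 array or siNS replicate 1, 3, 4 or 5 (0.35 to 0.57), and in ethanol without siZNF282 replicate 2 (0.60).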

How the data were processed

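The authors deposited log2 intensities of 34469 probes on 40 Cy3 arrays, made with limma 3.14.4 per the submitters' processing notes; the normalization steps are not given in the sources used here. The values ran from 4.13 to 14.3 with array medians of 4.67 to 4.69, so they were taken as normalized. A raw table was not used, because its 80 columns are named by chip position and could not be paired with samples. The ethanol titles carry 0 h, and the protocol gives 6 h for both treatments.

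Probes with 1 symbol in the platform annotation (26360; 3 had several and 8106 none listed) were kept where a group mean passed 5 on the log2 scale, and each gene was read on its brightest probe, which left 10608 genes. R 4.3.3 and limma 3.58.1 (lmFit, eBayes) fitted 10 group means, with Benjamini-Hochberg adjustment over all genes in each of 23 comparisons. Second probes of members were tested in the same fit over all 13903 probes above the line. The script was tested on simulated data.

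Per-array values were given for members called with a change of at least 1.5-fold in a dex or depletion comparison, and at most 3 genes a list were named from the 4 other lists, by size of change. Members and lists were chosen with earlier results of these data known. Same-numbered arrays deviated together (every r over 0.1, from 0.127 to 0.470) in the dex responses of siCCAR1, siCoCoA, siCCAR2 and siNS and in the siCoCoA and siCCAR2 comparisons with siNS in dex, so replicate numbers were taken as pairs there. The siZNF282 dex response (r of 0.190) and the siZNF282 comparison with siNS in dex (0.135 to 0.153) also passed 0.1. They had 2 siZNF282 arrays a group and were not taken as pairs. Alternatives were no intensity filter, a line of 6, the mean of probes, only the groups compared, the replicate block, quantile normalization, median centring and leaving out each array. The block gave 1 effect to each replicate number, shared by all siRNAs and treatments. Promoters came from RefSeq (GRCh38.p14).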

Additional observations from a re-analysis of the deposited data

Results flagged for a closer look

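Of 208 sets of a member in a group of 4 or 6 arrays, 18 (8.65%) held an array that lay apart from the rest of its group by more than Dixon's 95% limit, which chance gives in about 1 in 20 sets. They lay on 11 arrays, with at most 3 on any one. In siCCAR1 cells these were FDPS (8.93) and MSMO1 (10.8) in dex replicate 4, LSS (8.58) and ACLY (11.4) in dex replicate 2, and EBP (10.1) and INSIG1 (10.5) in ethanol replicate 4. In siCoCoA cells they were INSIG1 (9.92), SCAP (8.04) and FADS2 (8.80) in dex replicate 1, TM7SF2 (7.51) in ethanol replicate 2 and FADS2 (8.93) in ethanol replicate 1. In siCCAR2 cells they were HMGCS1 (10.9) in dex replicate 2 and ACLY (10.8) in dex replicate 3. In siNS cells they were SREBF1 (9.90), SCAP (8.33) and FADS2 (9.67) in dex replicate 1, ACAT2 (9.56) in dex replicate 6 and FADS2 (9.40) in ethanol replicate 3. All values are log2 intensities.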

How the results depend on the processing

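No called member value changed sign under any alternative. Of 70 called values in the dex and depletion comparisons, 41 were kept in all 7 alternatives and 31 also without any single array; calls were lost for 15 without the intensity filter, 0 with a line of 6, 9 with the mean of probes, 21 with only the groups compared, 7 with the replicate block, 1 with quantile normalization and 2 with median centring. Among 25 second-probe values in the called dex and depletion comparisons, 23 had the sign of the brightest probe and 11 were also called the same way. The second probes of LSS and ACAT2 lay near background, at means of 4.75 and 5.125. Of 80 called values between depletions, 69 were kept in all. The LSS call between siCCAR2 and siZNF282 was among those lost with the mean of probes. The 2 rescalings moved the median of all genes by at most 0.0272.

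The number of called members in the dex responses was 3 with the mean of probes and 2 with the replicate block for siCoCoA (1 as reported), 2 with the block for siCCAR2 (1), 0 with only the groups compared for siZNF282 (2), and 2 with the mean of probes and 2 with the block for siNS (1). Against siNS in ethanol it was 3 without the filter and 8 with the block for siCoCoA (5), and 2 with only the groups compared for siCCAR2 (6). In dex it was 7 with only the groups compared for siCCAR1 (11), and 6 without the filter and 6 with only the groups compared for siZNF282 (11). In the comparisons where replicate numbers are not taken as pairs, the block result is a count only. The siZNF282 comparisons whose r passed 0.1 are an exception. For siZNF282 against siNS in dex, the block lost the calls of FDPS, SQLE, INSIG1 and FADS2 and added ACAT2 lower and SC5D higher. In the siZNF282 dex response it added SC5D lower. Where numbers were taken as pairs, the block lost no call and changed no others than those given with the results.

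Without single arrays, the counts ran from 1 to 1 (siCCAR1), 1 to 2 (siCoCoA), 1 to 2 (siCCAR2), 0 to 1 (siZNF282) and 1 to 1 (siNS) in the dex responses. The count of 2 came without siCoCoA dex replicate 3, or without siCCAR2 dex replicate 1, ethanol replicate 1 or ethanol replicate 3; the count of 0 came without siZNF282 dex replicate 2. They ran from 5 to 9, 3 to 5, 3 to 6 and 4 to 9 for siCCAR1, siCoCoA, siCCAR2 and siZNF282 against siNS in ethanol, and from 4 to 10, 8 to 10, 4 to 6 and 2 to 10 in dex. They stayed at 0 for the 4 differences of response. Between depletions they ran from 19 to 20 (siCCAR1 and siCoCoA), 12 to 13 (siCCAR1 and siCCAR2), 13 to 15 (siCCAR1 and siZNF282), 12 to 15 (siCoCoA and siCCAR2), 7 to 10 (siCoCoA and siZNF282) and 13 to 16 (siCCAR2 and siZNF282). The causes were not tested. Members near background, SREBF2 and STARD4, are limited by signal, as is MVK in siZNF282 ethanol, and siZNF282 by its 2 arrays a treatment.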
